A study of Mus musculus with 3 samples.

Results

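Muscle RNA of mice that swam was compared with muscle RNA of mice that did not swim, both kept on normal food, gene by gene over a whole-genome array. The series holds 3 groups of male mice, 6 weeks old, sampled after 14 days: normal food without swimming, normal food with swimming, and swimming with 0.5% Chlorella powder, a green alga, in the food. Total RNA of 10 mice was pooled in each group and hybridised to 1 single-colour array, so each value comes from 1 pool and the spread between mice was not measured. Ratios and counts of the comparison use 2 of the 3 arrays. The Chlorella array entered the choice of spots and of each gene's brightest probe, and some alternative settings given later. Its values are given beside the comparison, at places as ratios to the same nonswimming array. Which muscle was dissected, and how the mice swam, are not given in the sources used here.

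A gene entered the comparison when its probe was well above background, in the scanner software's own call, on both arrays. That left 23127 of 41169 probes and 15661 of 27665 genes, each gene represented by its brightest probe. Defining genes of skeletal muscle were bright on each array: Acta1, muscle actin, had signals of 182350, 170570 and 178730 intensity units on the nonswimming, swimming and Chlorella arrays, and Ckm, muscle creatine kinase, 158320, 158450 and 152620. Signals are given in this order of arrays throughout. The 4 Y-linked genes checked were well above background on both arrays and Xist was not, as for the labelled sex, male.

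A single array per group left no replicate, so nothing was tested, and the number of arrays limits the precision. Genes were therefore counted by size. A log2 ratio is swimming minus nonswimming after each array was set to its 75th percentile, and "higher" or "lower" in a count means at least 2-fold. The ± beside a ratio combines the errors that the scanner software assigned to both spots, with a median of 0.20, and holds no difference between mice. By this rule 972 of 15661 genes (6.21%) differed: 805 (5.14%) were higher on the swimming array and 167 (1.07%) were lower. For a gene called on just 1 of the arrays a bound is given, written "at least N-fold", set by the dimmest signal called on the other array or the probe's own signal. Of 1118 genes called on the swimming array only, 390 (34.9%) had a bound of 2-fold or more upwards, and of 468 called on the nonswimming array only, 242 (51.7%) were at least 2-fold lower.

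Differences in either direction were most frequent among dim genes. Among the 3133 dimmest of the measured genes, with mean signals up to 44.3, 9.93% were higher and 3.32% lower, whereas among the 3132 brightest 1.21% were higher and 0.415% lower. The excess of higher over lower genes was largest in between, with 267 against 24 of the 3132 genes with signals of 44.3 to 178.5 (8.52% and 0.766%). Of genes that differed 10-fold or more, 62 were higher and 4 lower. The median of all genes was -0.04. The 8 spike-in RNAs well above background on both arrays had scaled ratios of -0.33 to -0.10, and setting their median to 0 moved the median of all genes to 0.19. Centring on the median signal moved it to -0.19 and gave 672 genes higher and 276 lower. Lists of genes with medians close to 0 therefore take their sign from the scaling, and for these the range over the alternative settings is given.

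**Figure D1:**
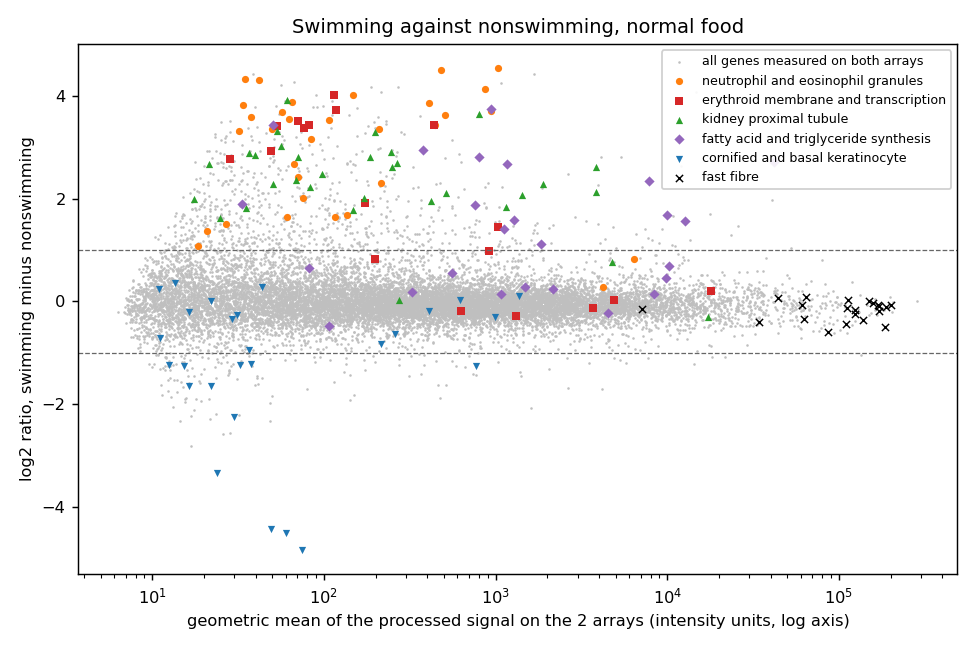
Each point is a gene measured on both arrays, with the geometric mean of its processed signals on a log axis (intensity units) and its log2 ratio, swimming minus nonswimming. Dashed lines mark 2-fold. Most neutrophil, eosinophil and kidney genes lie above the upper line, keratinocyte genes include the lowest points, and fast-fibre genes form the bright end near 0.

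Skeletal muscle is made of multinucleate fibres with slow or fast myosins, and a dissected piece also carries vessels, nerve, blood, fat, tendon and fascia. Muscles lie against bone, whose marrow makes granulocytes, B cells, red cells and platelets, and beneath skin, whose keratinocytes turn over into cornified cells. Endurance exercise is known to shift fibre type, mitochondrial genes and fuel use, and a single bout induces stress and immediate-early genes for hours. The gene lists follow these cell types and programmes, beginning with the blood and marrow genes, which held many of the largest upward ratios.

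Granule genes of eosinophils and neutrophils were higher on the swimming array by up to 23.3-fold. These proteins are made while the cells mature in the marrow, primary granule proteins in promyelocytes and secondary ones in myelocytes. Prg2, the major basic protein of eosinophils, had signals of 209.7, 5038 and 10.3. The swimming array stood far above both others. Of 10 eosinophil genes on the array, 8 were measured on both arrays and 8 of these were higher, with ratios of 1.08 to 4.54; their signals summed to 382, 6674 and 53.6. Ear1, an eosinophil ribonuclease, had a ratio of 3.35 ± 0.21, and the eotaxin receptor gene Ccr3 a smaller one of 1.08 ± 0.30. Ear genes are near copies of each other, so their probes may share signal.

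Among primary granule genes 8 of 8 measured were higher (median 3.39, 1.55 to 3.62 over the alternative settings), and the other 3 on the array, Prtn3, Prss57 and Cst7, were called on the swimming array only, at least 9.30-fold, 7.22-fold and 4.53-fold higher. Mpo, myeloperoxidase, had signals of 258, 3475 and 27.0, which is 13.1-fold. Elane, neutrophil elastase, had 15.4, 163 and 2.79, the last of these not well above background. Both genes were brightest with swimming alone and dimmest on the Chlorella array. The transcription factor genes Gfi1 (1.51 ± 0.25) and Myb (3.32 ± 0.10), active in myeloid precursors, were higher too. In a pooled tissue, more cells of a type and more RNA per cell cannot be told apart.

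Of secondary and tertiary granule genes 14 of 16 measured were higher (median 3.35, 1.72 to 3.58). Ltf, lactoferrin, had signals of 205, 3715 and 17.1, and its 2 probes gave ratios of 4.05 and 4.13. Camp, the cathelicidin peptide, had 99.6, 2342 and 10.2, or 22.8-fold between the normal-food arrays, and the scanner files place its probe on chromosome 9 from 109544107 to 109544166, in coordinates for which the sources used here give no genome build. The collagenase gene Mmp8 (3.55 ± 0.24) and the gelatinase gene Mmp9 (1.65 ± 0.07) were also higher. The 2 members within 2-fold were Anxa1 (0.28) and Hp (0.82), which other cells make as well and which were bright on both arrays. The letters TTGCNNAA, bound by C/EBP factors, were searched on both strands from 250 bases before to 50 after the gene start, in RefSeq promoters of build GRCm38.p6. They were found in 12 of 29 granule genes with a promoter entry (41.4%), against 12.2% of 27025 genes. A match is a description of the letters. Ltf and Fcnb, a ficolin of neutrophil granules, are shown for the 150 bases before the start, with the match in capitals, at chr9:111019142-111019291 on the plus strand and chr2:28084879-28085028 on the minus strand.
Ltf: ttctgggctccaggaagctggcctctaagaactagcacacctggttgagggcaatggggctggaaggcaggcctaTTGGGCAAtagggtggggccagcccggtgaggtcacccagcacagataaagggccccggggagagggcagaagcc
Fcnb: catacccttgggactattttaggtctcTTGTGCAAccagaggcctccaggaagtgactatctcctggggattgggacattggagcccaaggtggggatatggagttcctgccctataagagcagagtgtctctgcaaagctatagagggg

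Of genes of circulating neutrophils 5 of 8 measured were higher and 4 more by their bound. S100a8 and S100a9, the calprotectin subunits, had signals of 357, 7934 and 56.6 and of 3502, 61080 and 673. The formyl peptide receptor gene Fpr2 was called on the swimming array only, at least 16.7-fold higher. Il1b (0.84), Sorl1 (-0.28) and Il1r2 (-0.47) were within 2-fold. Genes shared by most leukocytes, a list added after the data were seen, had smaller ratios. Of these, 18 of 25 were higher with a median of 1.25, among them Ptprc, CD45 (1.37 ± 0.06), and Rac2 (2.05 ± 0.21).

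Resident macrophage genes had no such difference. Of 22 measured, 1 was higher (4.55%, against 5.14% of all genes), Marco, a scavenger receptor (2.71 ± 0.24). The median was 0.04, ranging from -0.11 to 0.27 over the alternative settings. Cd68 had signals of 174 and 187 on the nonswimming and swimming arrays, Csf1r, the receptor for the macrophage growth factor, 630.3 and 619.9, and Mrc1, the mannose receptor, 221 and 233. The values of these receptors on the 2 arrays differed by less than the scanner error. In the MHC class II list none of 10 genes differed 2-fold (median 0.05, -0.10 to 0.28). Of 8 measured mast cell genes, 1 was lower, Tpsab1, a tryptase (-1.22 ± 0.31), and the chymase gene Cma1 had -0.40 ± 0.20.

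Some B cell genes were higher at both ends of the lineage. Of pro-B and pre-B genes 5 of 13 were higher, among them Vpreb1 and Vpreb3, which encode surrogate light chain and its relative, Dntt, the terminal transferase that adds bases at V(D)J joints, and Cd79b. Vpreb1 had signals of 28.6, 177 and 8.37, the last not well above background, and Dntt of 18.9, 122 and 9.97. Rag1, the recombinase, was called on the swimming array only, at least 2.46-fold higher, and Igll1 and Pax5 at least 3.52-fold and 3.51-fold. The other 8 of 13 measured members were within 2-fold. The part of marrow cells in these values was not tested. The list's median was 0.36 over measured members and 1.297 with members at their bound added, with Ebf1 (0.24), Sox4 (0.34) and Bcl7a (0.09), which are not restricted to B cells, near 0.

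Mature B cell genes were higher in 8 of 10 (median 2.24, 0.50 to 2.47 over the alternative settings). Ms4a1, CD20, had signals of 15.2, 234 and 4.04, the last not well above background, and Fcmr, the IgM receptor, 13.8, 199.7 and 5.81, the last again not well above background. Fcrla had no signal well above background without swimming and was at least 13.5-fold higher. Jchain (3.20 ± 0.22) and Mzb1 (1.98 ± 0.07), which serve antibody secretion, were the 2 of 9 plasma cell genes that were higher. Ighm, the heavy chain of IgM, was bright on both arrays, at 6500 and 10052, with a ratio of 0.58 ± 0.20.

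Of T and NK cell genes 6 of 11 were higher, with Cd3d (3.09 ± 0.29), the kinase gene Lck (2.64 ± 0.33) and Nkg7 (2.99 ± 0.22) in front. Cd3e (0.05) and Cd4 (-0.11) were near 0. The median of 1.001 ranged from 0.27 to 1.60. The members ranged from -0.11 to 3.09.

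Genes of red cell precursors were higher as well, while the enzymes of haem synthesis were mostly within 2-fold. Membrane and transcription genes of erythroblasts were higher in 11 of 18 measured (median 2.34, 0.50 to 2.93), and 7 more were higher by their bound. Slc4a1, the anion exchanger band 3, had signals of 131, 1468 and 41.1, and Klf1, an erythroid transcription factor, 24.5, 273 and 5.72, the last not well above background. Rhd, of the Rhesus complex, had 31.9, 437 and 2.42, the last again not well above background. The swimming array was 10-fold or more above the others for each of these. Ermap, an erythroid membrane protein, was called on the swimming array only, at least 15.7-fold higher. Ank1 (0.19), Sptb (-0.13), Tfrc (-0.29) and Bpgm (0.02), which muscle also expresses, were bright on both arrays and near 0. Of 12 haem synthesis genes 1 was higher (8.33%, against 5.14% of all genes), the erythroid-specific Alas2 (1.46 ± 0.20). Fech, the last enzyme, had -0.05. The adult globin genes Hba-a1 and Hbb-bt had ratios of 1.46 ± 0.20 and 1.98 ± 0.20. Globin genes are near copies of each other, and their probes may share signal.

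The letters AGATAA, bound by GATA factors, lay in 8 of 18 erythroid genes with a promoter entry (44.4%), on either strand of the same window, against 12.7% of all genes. Gata1 itself had a ratio of 2.76 ± 0.10. Rhd and Kel, a blood group metalloprotease with signals of 16.1, 177 and 2.55 and the last not well above background, each hold 1 match in the 150 bases shown, at chr4:134864386-134864535 on the plus strand and chr6:41704326-41704475 on the minus strand.
Rhd: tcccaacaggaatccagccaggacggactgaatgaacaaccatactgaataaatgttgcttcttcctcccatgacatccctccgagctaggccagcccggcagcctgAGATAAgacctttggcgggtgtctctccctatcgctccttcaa
Kel: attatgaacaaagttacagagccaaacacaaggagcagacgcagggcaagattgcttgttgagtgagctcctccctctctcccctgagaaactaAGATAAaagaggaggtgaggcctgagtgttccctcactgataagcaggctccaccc

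Platelet genes included some of the largest ratios beside others within 2-fold. Ppbp, platelet basic protein, had signals of 51.8, 899.7 and 16.8, and Gp9, part of the von Willebrand factor receptor, 10.6, 149.99 and 4.91, the last not well above background. Of 14 measured, 6 were higher and 4 more by their bound, such as Gp5, at least 6.88-fold. Pf4 (0.62), F13a1 (0.33) and Selp (0.58), which macrophages or endothelium also make, were within 2-fold.

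Mitosis genes were higher on the swimming array in 24 of 26 measured, with a median of 2.15 (0.93 to 2.37). Mki67, the proliferation antigen Ki-67, had signals of 88.5, 903 and 86.1, and Ccnb2, a mitotic cyclin, 96.0, 744 and 58.1. For both genes the swimming array was the highest. Top2a, the topoisomerase of condensing chromosomes, had 7.65, 60.4 and 9.69, and Ube2c, an anaphase ubiquitin enzyme, 29.1, 174 and 19.7. The 2 measured members within 2-fold were Aurka (0.04) and Tpx2 (0.33), the kinase and its activator. Genes of DNA replication had smaller ratios: 9 of 29 were higher with a median of 0.64, led by Uhrf1 (2.23 ± 0.21), Mcm6 of the replicative helicase (2.02 ± 0.20) and the licensing factor Cdt1 (1.95 ± 0.21), while Pcna (0.30) and Rrm1 (0.12) were within 2-fold. Of 24 replication-dependent histone genes 5 were higher, and these too are near copies. The summed signals of the primary granule list (505, 5934 and 69.6) and of the mitosis list (2809, 7686 and 2121) both peaked on the swimming array. The part of marrow cells in the mitosis values was not tested.

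In promoters of mitosis genes the CCAAT box, bound by NF-Y, and the element TTTGAA, known as the CHR, recur. CCAAT lay in 22 of 27 members with a promoter entry (81.5%) against 41.1% of all genes, and TTTGAA in 20 of 27 (74.1%) against 20.2%, counting both strands. The E2F element TTTGGCGC lay in 5 of 25 replication genes (20.0%) against 0.585%. The members shown, with matches in capitals, are Mki67 at chr7:135716380-135716529 and Top2a at chr11:99024190-99024339, both on the minus strand. Capitals that read ATTGG or TTCAAA are matches on the opposite strand.
Mki67: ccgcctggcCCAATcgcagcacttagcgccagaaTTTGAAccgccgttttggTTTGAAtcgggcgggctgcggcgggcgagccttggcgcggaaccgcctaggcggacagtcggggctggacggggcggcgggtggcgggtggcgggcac
Top2a: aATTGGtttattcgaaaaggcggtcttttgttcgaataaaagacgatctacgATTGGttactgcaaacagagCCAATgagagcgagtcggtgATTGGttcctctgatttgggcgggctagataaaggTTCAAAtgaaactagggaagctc

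Some bone genes were higher too, and few cartilage or tendon genes differed. Bglap, osteocalcin, had signals of 858, 4056 and 355, and Mepe, a protein of osteocytes, 81.2, 400.0 and 25.3. Of 14 osteoblast and osteocyte genes 7 were higher (median 0.96), and the Chlorella array was the lowest for both genes just given. The bone collagen genes Col1a1 (-0.12) and Col1a2 (-0.37), which connective tissue at large makes, were near or below 0. Of 11 osteoclast genes 3 were higher, among them Acp5, tartrate-resistant acid phosphatase (1.498 ± 0.20), while Ctsk, cathepsin K, had -0.39. Cartilage had 1 gene higher, Snorc (1.35 ± 0.20), and 1 lower, Col9a1 (-1.26 ± 0.22), of 13, or 7.69% each. Of all genes 5.14% were higher and 1.07% lower. In tendon the marker Tnmd, tenomodulin, was lower, with signals of 2189, 872 and 747 and a ratio of -1.37 ± 0.20. The tendon list was added after the data were seen, and its median was -0.48 (-0.64 to -0.26 over the alternative settings).

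**Figure D2:**
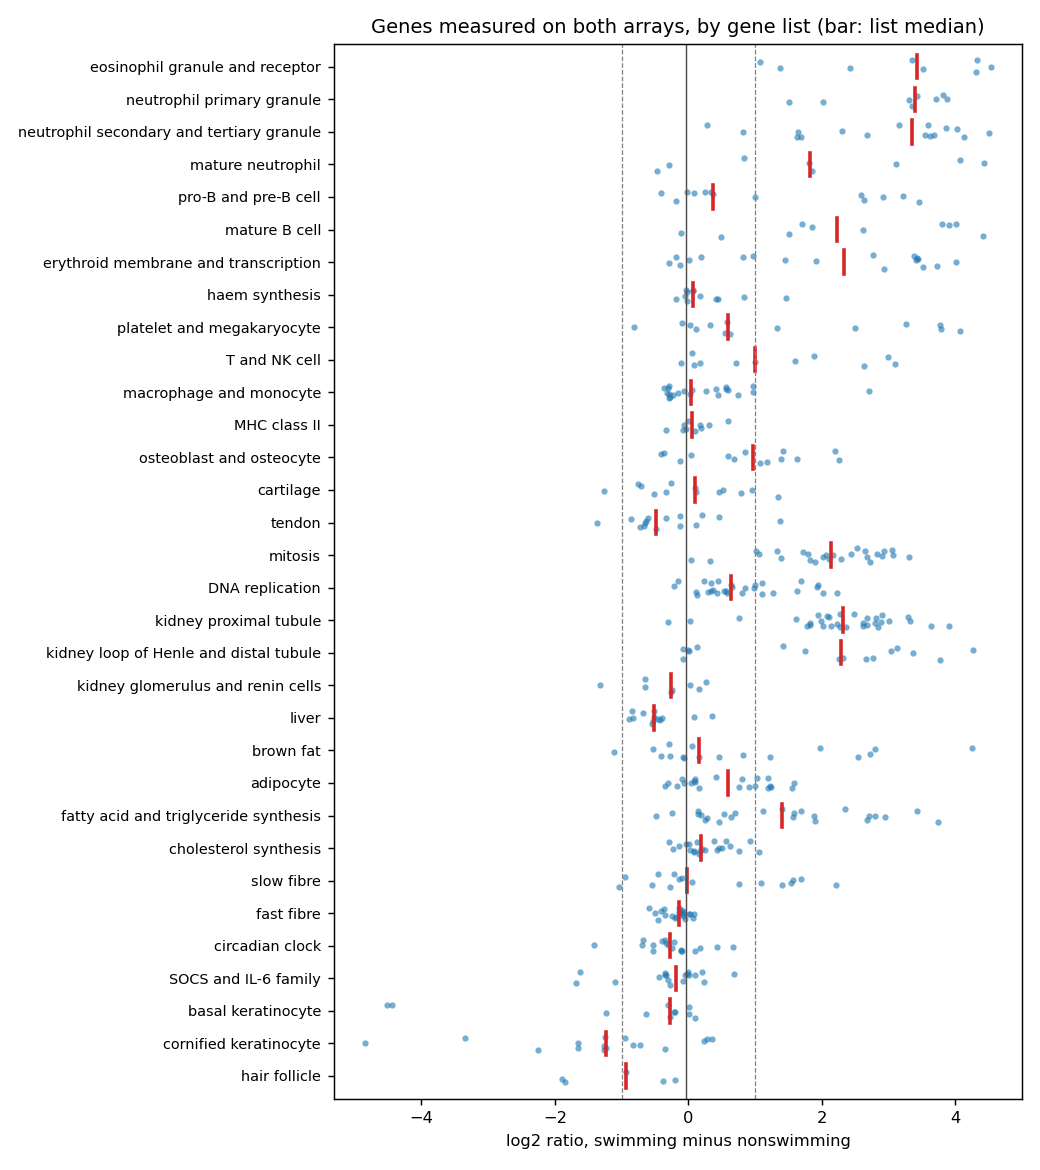
Each point is a member measured on both arrays, placed by its log2 ratio, swimming minus nonswimming, in 32 gene lists, with the list median as a red bar, the median of all genes as a solid line and 2-fold as dashed lines. The granule lists have medians above 3, mitosis and kidney tubule lists above 2, fast-fibre and MHC class II genes cluster at 0, and cornified keratinocyte genes lie mostly below -1.

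Genes of the kidney tubule were among the highest on the swimming array. The nephron filters blood in the glomerulus and then recovers glucose, phosphate, amino acids and filtered protein in the proximal tubule, salt and divalent ions in the loop of Henle and distal tubule, and water in the collecting duct. Lists of genes for each segment were added after a first kidney list had been seen to be high. Of 40 proximal tubule genes on the array 32 were measured on both arrays, 29 of these were higher (median 2.32, 1.53 to 2.62), and the other 8 were called on the swimming array only, each at least 2-fold higher. Their signals summed to 29803, 60511 and 30154. The Chlorella minus nonswimming median of the list was 0.39.

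Transporters made up much of the list. Slc5a2, the glucose transporter SGLT2, had signals of 15.5, 241 and 41.5, a ratio of 3.92 ± 0.25. Slc34a1, the main phosphate transporter, had 62.2, 627 and 127, and Slc34a3, its relative, had 8.002, 148 and 19.9, the first not well above background, and was at least 18.0-fold higher. The swimming array was the highest for all 3 transporters, with the Chlorella array next. The organic anion transporter gene Slc22a6 had 104, 689 and 134, and Slc7a9 and Slc3a1, the 2 chains of the cystine transporter, had ratios of 2.89 ± 0.26 and 2.85 ± 0.25. Lrp2, Cubn and Amn, the receptor complex for filtered protein, had ratios of 2.23 ± 0.21, 1.99 ± 0.30 and 3.32 ± 0.24. All members of both complexes were higher with swimming.

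Enzymes of the tubule followed. Miox, which breaks down inositol and is known from kidney, had signals of 223, 2866 and 329.7, or 12.5-fold, with its probe on chromosome 15 from 89419819 to 89419877 in those coordinates. Kap, the androgen-regulated kidney protein, had 1519, 9655 and 1800. For both genes the swimming array was the highest, and the Chlorella minus nonswimming ratios were 0.83 and 0.51. Gluconeogenic Pck1 (2.14 ± 0.20), Fbp1 (2.07 ± 0.20) and G6pc (1.78 ± 0.21), which liver expresses too, were also higher. The 3 measured members within 2-fold were Aqp1 (-0.31), a water channel of capillaries as well, Slc22a12 (0.03) and Cyp2e1 (0.76).

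Beyond the proximal tubule, 11 of 16 measured genes of the loop of Henle and distal tubule were higher (median 2.30, 0.07 to 2.52 over the alternative settings, the lowest with only members of at least 50 intensity units on both arrays). Umod, uromodulin, had signals of 37.5, 264 and 15.3, Kcnj1, the potassium channel ROMK, 11.01, 118 and 10.98, and Klk1, kidney kallikrein, 24.1, 341 and 51.8. Uromodulin and ROMK are made mainly in the tubule. Slc12a3, the thiazide-sensitive salt transporter, was called on the swimming array only, at least 4.11-fold higher, whereas Slc12a1, the target of loop diuretics, reached a signal of 12.7 there and Trpv5, a calcium channel, was not well above background on either array. Calcium-binding S100g (4.27 ± 0.25) and Calb1 (3.13 ± 0.08) were among the highest. Klk1 belongs to a family of near copies, and its other measured probe had a ratio of 2.01.

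In the collecting duct list 3 of 6 measured genes were higher, 1 was lower and 7 more were higher by their bound, with Aqp2, the vasopressin-regulated water channel, at 26.1, 65.4 and 29.9 and Slc26a4, pendrin, at least 10.5-fold higher. Of 8 measured genes of the glomerulus and renin cells none was higher and 1 was lower. The podocyte genes Nphs1 and Wt1 were not well above background on either array and so have no ratio. Podxl, shared with endothelium, had a ratio of -0.65. Ren1, renin, was called on the swimming array only, at least 4.73-fold higher. A part of kidney tissue in these values was not tested.

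The letters GTTAAT, which recur in promoters of kidney and liver genes, lay in 11 of 32 proximal tubule genes with a promoter entry (34.4%), counting both strands, against 8.24% of all genes. Hnf4a, a transcription factor of kidney and liver that was not matched to these letters, was at least 5.63-fold higher. Miox at chr15:89334323-89334472 holds 1 match and Slc34a1 at chr13:55399498-55399647 holds 2, both on the plus strand and shown for 150 bases before the start, with capitals reading ATTAAC on the opposite strand.
Miox: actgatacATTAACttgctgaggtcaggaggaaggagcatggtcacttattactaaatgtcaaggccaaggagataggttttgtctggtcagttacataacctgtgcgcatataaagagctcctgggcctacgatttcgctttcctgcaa
Slc34a1: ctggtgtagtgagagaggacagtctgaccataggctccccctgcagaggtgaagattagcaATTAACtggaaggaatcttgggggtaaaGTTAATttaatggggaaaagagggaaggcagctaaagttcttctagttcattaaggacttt

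**Figure D3:**
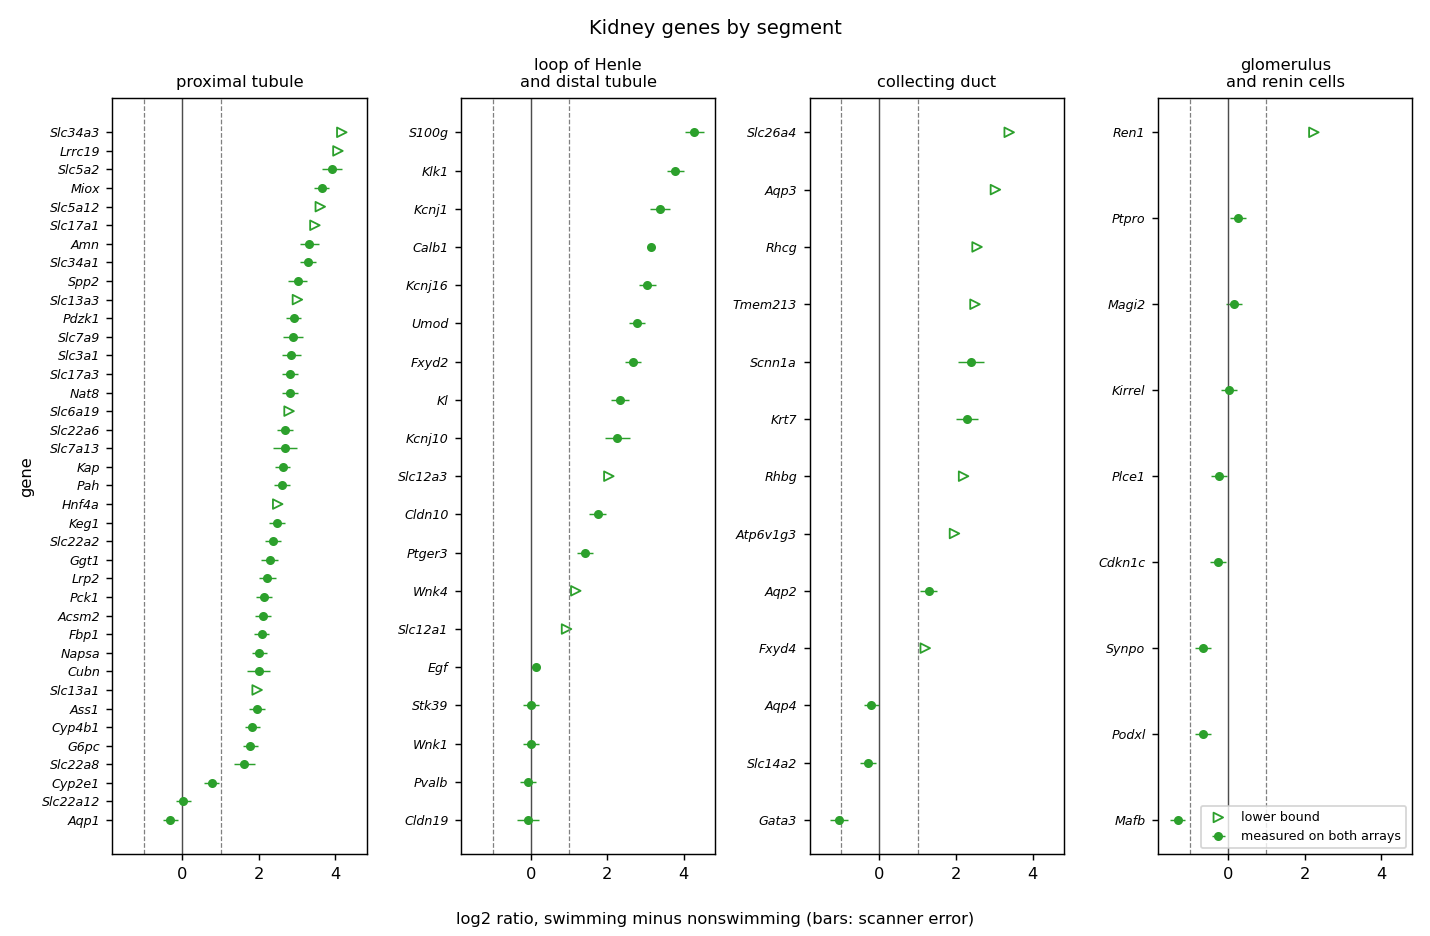
Log2 ratios, swimming minus nonswimming, of kidney genes by nephron segment, with filled points for genes measured on both arrays, bars for the scanner error and open triangles for lower bounds. Dashed lines mark 2-fold. Nearly all proximal tubule genes shown lie above 2-fold. No measured gene of the glomerulus and renin cells does, and Ren1 has an upward bound.

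Liver genes were within 2-fold, and lists for other organs had few measured members. Of 13 measured liver genes none differed 2-fold and the median was -0.52 (-0.67 to -0.29 over the alternative settings). Alb, albumin, had signals of 2451, 1922 and 1187 and Fgb, a fibrinogen chain, 954, 554 and 461. Both liver genes were brightest without swimming. Lists for lung, pancreas, stomach, testis, brain, intestine and adrenal gland, added after the data were seen, had between 1 and 5 measured genes each, and for pancreas, stomach and intestine most members were not well above background on either array. In these, Vil1, villin, which kidney brush border shares (2.54 ± 0.25), Atp4b of the gastric proton pump (3.31 ± 0.34) and Mc2r, the corticotropin receptor (1.17 ± 0.29), were higher. By their bound 2 lung, 1 pancreas, 1 stomach and 3 testis genes were higher as well. Sftpb, a lung surfactant protein, and Prss2, a pancreatic trypsin, were called on the swimming array only, at least 6.95-fold and 5.99-fold higher, whereas Sftpc, Pnlip, Gkn1 and Cpa1 were not well above background on either array.

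Among lipid genes, fatty acid synthesis had the most members higher. Fatty acid and triglyceride synthesis had 14 of 25 genes higher and a median of 1.40. Fasn, fatty acid synthase, had signals of 16146, 108590 and 52862, and Elovl6, which elongates its product, 254, 3518 and 901. Thrsp, a lipogenic protein of fat and liver, had 3421, 17914 and 6779. For these 3 genes the Chlorella array lay between the others. Slc25a1, the citrate carrier that exports acetyl units from mitochondria (2.67 ± 0.20), and the NADPH makers G6pdx (1.40 ± 0.20) and Pgd (1.58 ± 0.20) were higher, while Acacb, the acetyl-CoA carboxylase of muscle, had 0.15 and the lipogenic regulators Srebf1 and Mlxipl 0.70 and 0.25. Cholesterol synthesis had 1 of 22 genes higher (4.55%, against 5.14% of all genes), Sqle (1.05 ± 0.21).

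Markers of the fat cell itself had smaller ratios. Adipoq, adiponectin, had signals of 4949, 12004 and 3658 and Plin1, perilipin of the lipid droplet, 1928, 5870 and 2080. Of 22 adipocyte genes 7 were higher (median 0.59, 0.44 to 0.82), with Fabp4 at 0.81 and Pparg at 0.91 within 2-fold. Of 17 brown fat genes 6 were higher and 1 lower (median 0.17, 0.01 to 0.39). Ucp1 had 243, 4775 and 598, Cidea 2000, 14377 and 5911, Otop1 22.6, 136 and 42.7 and Kcnk3, a potassium channel, 54.6, 372 and 123. Each was highest with swimming on normal food and lowest without swimming. Prdm16 (-0.06), Ppargc1a (-0.30) and Dio2 (-0.40) were within 2-fold, and Zic1, a transcription factor of brown fat and axial muscle, was lower (-1.11 ± 0.27), with signals of 30.7, 14.6 and 97.5. Summed signals of the adipocyte list were 360120, 478330 and 332740. The part of adipose tissue in the lipid synthesis values was not tested.

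Genes of slow fibres were higher in 6 of 16 and lower in 1, with a median of -0.02 (-0.17 to 0.70 over the alternative settings). Myh7, slow myosin heavy chain, had signals of 9704, 32354 and 25424, and its thin-filament partners Tnnt1, Tnni1 and Tnnc1 had ratios of 1.41 ± 0.20, 1.55 ± 0.20 and 1.57 ± 0.20. Tnnt1, slow troponin T, had signals of 4482, 12305 and 7573. All 4 genes were higher on both swimming arrays than without swimming. Sln, sarcolipin, a regulator of the calcium pump, had 394, 1898 and 550.5, and Atp2a2, the slow calcium pump, a ratio of 1.08 ± 0.20. The slow light chain gene Myl3 (-0.09) and the slow tropomyosin gene Tpm3 (0.05) had values near 0 in their brightest probe but 1.72 and 1.19 in a dimmer one. Mb, myoglobin, was lower, with signals of 190460, 95244 and 120170 and a ratio of -1.04 ± 0.20, and Fabp3 (-0.55) and Ckmt2 (-0.45), oxidative genes of slow fibres, were below 0. The slow myosin and troponin genes and these metabolic genes thus had opposite signs.

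Fast-fibre genes did not differ 2-fold in any of 21 cases, with a median of -0.13 (-0.29 to 0.09 over the alternative settings). Myh4, myosin IIB, had signals of 202270, 197390 and 201560, Myh1, myosin IIX, 104810, 71690 and 94199, and Myh2, myosin IIA, 125640, 94845 and 119940. Myh1 had the lowest ratio among the fast-fibre genes, -0.59 ± 0.20. Myh6, alpha myosin, had 545, 2014 and 1458, while the other heart-type genes Myl4 (-0.10) and Tnni3 (0.05) were near 0 and Nppa and Myl7 were not well above background on either array. Myh6 and Myh7 are close relatives whose probes may share signal. In the Z-disc and sarcomere list, added after the data were seen, 3 of 30 were lower: Actn2, alpha-actinin of the Z-disc (30982, 14986 and 20987), Mybpc1, slow myosin-binding protein C (21466, 9494 and 16412), and Ankrd1, a strain-responsive titin partner (1017, 429 and 598). Their ratios were -1.09 ± 0.20, -1.22 ± 0.20 and -1.29 ± 0.20.

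**Figure D4:**
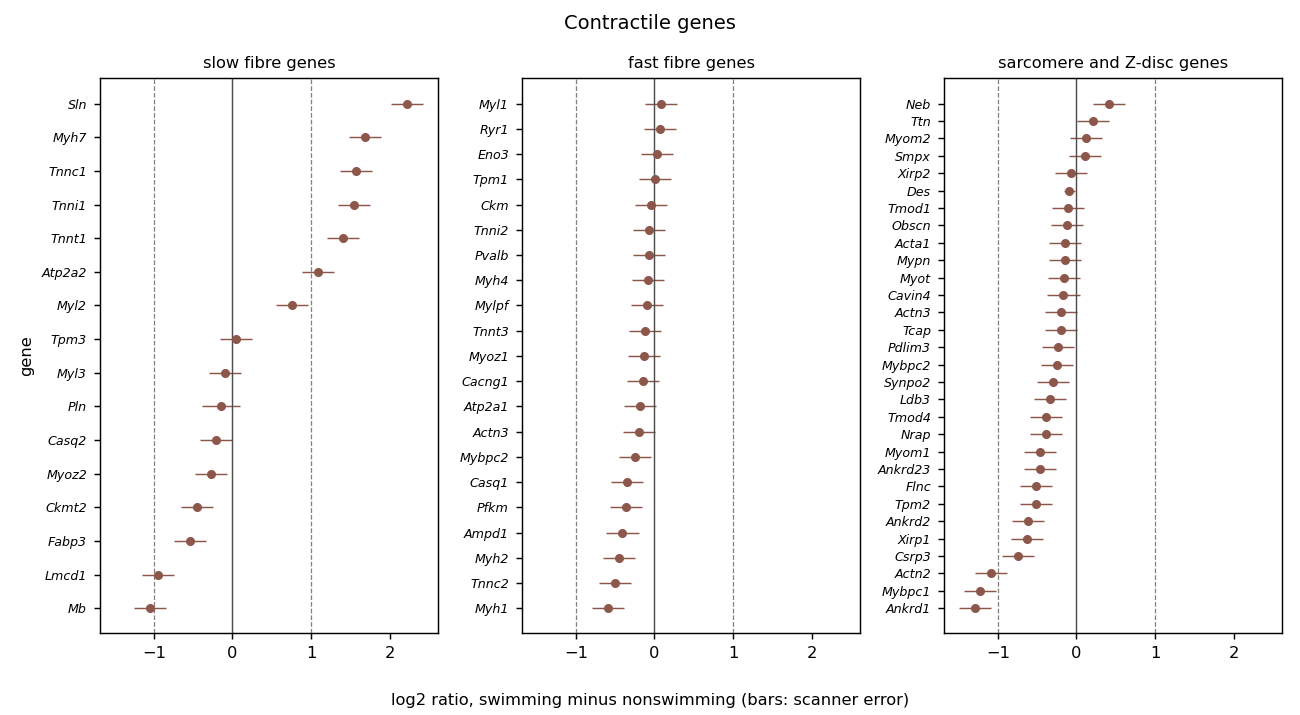
Log2 ratios, swimming minus nonswimming, of slow-fibre, fast-fibre and sarcomere genes measured on both arrays, with the scanner error as bars and 2-fold as dashed lines. Of the slow-fibre genes 6 lie above 2-fold and Mb below it, the 21 fast-fibre genes lie between -0.59 and 0.08, and Actn2, Mybpc1 and Ankrd1 are the lowest sarcomere genes.

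Genes of energy metabolism in the fibre were nearly level. None of 78 respiratory chain genes, 20 citric acid cycle genes or 26 fatty acid oxidation genes differed 2-fold, with medians of -0.04 (-0.19 to 0.19), -0.25 (-0.41 to -0.02) and -0.19 (-0.34 to 0.04). Ppargc1a, the regulator of mitochondrial genes, had signals of 1600, 1346 and 1640, Cs, citrate synthase, 97264, 81581 and 77432, and Pdk4, which holds back glucose oxidation, 24888, 17982 and 23246. In glycolysis 1 of 21 was higher (4.76%, against 5.14% of all genes), Eno1 (1.06 ± 0.20), the isoform of non-muscle cells. Muscle Eno3 had 0.03 and Hk2, muscle hexokinase, -0.86. Of 75 mitochondrial ribosomal protein genes 1 was lower (1.33%, against 1.07% of all genes), Mrpl9 (802, 269 and 236). A list of mitochondrial carriers was added after the data were seen. Slc25a25, a calcium-regulated ATP-magnesium and phosphate carrier, had the lowest ratio of those measured in it (-1.71 ± 0.20), at 7435, 2345 and 10881. Its value on the Chlorella array exceeded that without swimming.

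Genes of nerve contact, vessels and growth were near 0. In the neuromuscular junction list none of 12 differed 2-fold (median -0.26, -0.41 to -0.03), and among 19 endothelial genes none did (-0.27, -0.42 to -0.04). The 16 Schwann cell and nerve genes were within 2-fold as well. Of 15 genes of developing or regenerating muscle none did either, with Myog, a differentiation factor, at 681, 723 and 972, Pax7, of satellite cells, at 20.8, 23.5 and 24.2 and Myh3, embryonic myosin, at 113, 129 and 184.

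Among acute-response genes, single members were lower or higher while the list medians stayed near 0. Per1, a clock gene also induced by glucocorticoids, had signals of 1190, 462 and 1458 and was the 1 of 18 clock genes that differed 2-fold (-1.41 ± 0.20). Arntl, a clock activator that cycles in antiphase to Per1, had 0.44 and Nr1d1 0.68. In a list of SOCS and IL-6 family genes, added after the data were seen, 3 of 18 were lower (median -0.18, -0.33 to 0.05), each a negative regulator of cytokine signalling: Socs3 (4639, 1485 and 898), Socs1 (884, 296 and 269) and Cish (7040, 3379 and 2717), with ratios of -1.69 ± 0.20, -1.62 ± 0.20 and -1.10 ± 0.20. These 3 genes were lower on both swimming arrays. Il6 was not well above background on either array. Fbxo32, atrogin-1, was lower (3742, 1804 and 2962), and the other muscle ubiquitin ligase gene Trim63, MuRF1, was not (9815, 11393 and 14569). The immediate-early list was likewise added after the data were seen. In it 4 of 27 were higher (14.8%, against 5.14% of all genes), Egr1 (1.38 ± 0.20), Junb (1.31 ± 0.20), Zfp36 (1.31 ± 0.20) and Ier2 (1.01 ± 0.20). Of the same 27 genes 1 was lower (3.70%, against 1.07% of all genes), Fosb (-1.45 ± 0.22). Nr4a1 (-0.27) and Fos (0.30), which a single bout of exercise induces, were within 2-fold. Heat shock genes were within 2-fold in all 21 cases. The letters CACGTG, the E-box of clock factors, lay in 5 of 16 clock genes with a promoter entry (31.3%) against 8.09% of all genes, Per1 as the 1 lower gene among the 5.

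Lists drawn from exercise and stress hormones overlapped with these genes. Of 21 genes that exercise is known to change in muscle, Egr1, Junb and Angptl4, an inhibitor of lipoprotein lipase (1.45 ± 0.20), were higher and Ankrd1 lower. These were 14.3% and 4.76%, against 5.14% and 1.07% of all genes. Of 23 glucocorticoid-responsive genes 2 were higher (8.70%, against 5.14% of all genes), Lcn2, lipocalin-2 of neutrophil granules (3.68 ± 0.26), and Angptl4. In the same list 1 was lower (4.35%, against 1.07% of all genes), Per1, while Fkbp5 had -0.47 and Tsc22d3 -0.57. None of 9 metallothionein and zinc genes differed 2-fold.

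Immune signalling beyond the cell markers was mixed. Of 19 chemokine and receptor genes 6 were higher, with Cxcl1, which draws neutrophils, at 11.7, 70.0 and 38.4, Cxcl9 at 32.6, 105 and 24.1 and Cxcl10 at 11.4, 36.1 and 12.5. Ccl2 (-0.01) and Ccl8 (-0.61), which attract monocytes, were within 2-fold. Interferon-stimulated genes had 2 of 21 higher (9.52%, against 5.14% of all genes), Rsad2 (1.35 ± 0.21) and Ifi44 (1.14 ± 0.31). Mx1 was called on the nonswimming array only, at least 5.37-fold lower with swimming. Of 20 complement genes 1 was higher (5%, against 5.14% of all genes), Cfd, adipsin (1.03 ± 0.20), which adipocytes secrete. Ifng, interferon gamma, was lower (-2.06 ± 0.36) but dim on both arrays, at 26.4 and 6.53.

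Genes of the epidermis had the lowest ratios. Lor, loricrin of the cornified envelope, had signals of 393, 14.1 and 9.498, and the basal keratins Krt5 and Krt15 had 283, 12.7 and 6.88 and 225, 10.7 and 1.297, the last value not well above background. Both swimming arrays were more than 20-fold below the nonswimming one for these 3 genes. Krt14, the partner of Krt5, was called on the nonswimming array only, at least 20.6-fold lower with swimming. Of 16 measured genes of cornifying cells 9 were lower (median -1.24, -1.39 to -0.39 over the alternative settings), with 4 more by their bound, while Ivl, Flg and Casp14 were not well above background on either array. Desmosome genes Dsp (-1.65 ± 0.29) and Pkp1 (-1.65 ± 0.28) and the hair follicle keratin Krt17 (-1.84 ± 0.22) were lower too. Of 11 measured basal keratinocyte genes 3 were lower and 8 were within 2-fold, with a median of -0.27 (-0.42 to -0.04). Among the 8 were Itga6 (-0.31) and Dst (0.02), which are shared with other tissues. Summed signals of the cornified list were 2478, 942 and 723. The part of skin in these values was not tested.

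Some large differences lay outside every list. Of 14434 measured genes in no list, 566 were higher (3.92%, against 5.14% of all genes) and 134 lower (0.928%, against 1.07%). Rab5c, a GTPase of early endosomes, was lower although bright, with signals of 3274, 797 and 899 and a ratio of -2.08 ± 0.20. Its probe spans chromosome 11 from 100824424 to 100824483 as the scanner files place it. Slc4a7, a sodium bicarbonate transporter of muscle and other tissues, had 903, 251 and 252. For both genes the Chlorella array lay with the swimming array. Slc38a5, a glutamine transporter, was higher at 12.8, 244 and 2.41, the last not well above background. Of genes chosen after their values were seen, Tkt, transketolase of the pentose phosphate pathway, had 4766, 30720 and 10667, Dnase1, a nuclease abundant in kidney, 185, 1677 and 265, and Slc2a5, the fructose transporter, 57.6, 665 and 224. Tbc1d1, a Rab regulator of glucose transport in muscle, was lower, at 512, 192 and 308, and Lrp5, a Wnt co-receptor, at 592, 229.9 and 300.3. The 2 probes of Tbc1d1 had the same sign, at -1.46 and -1.37.

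**Figure D5:**
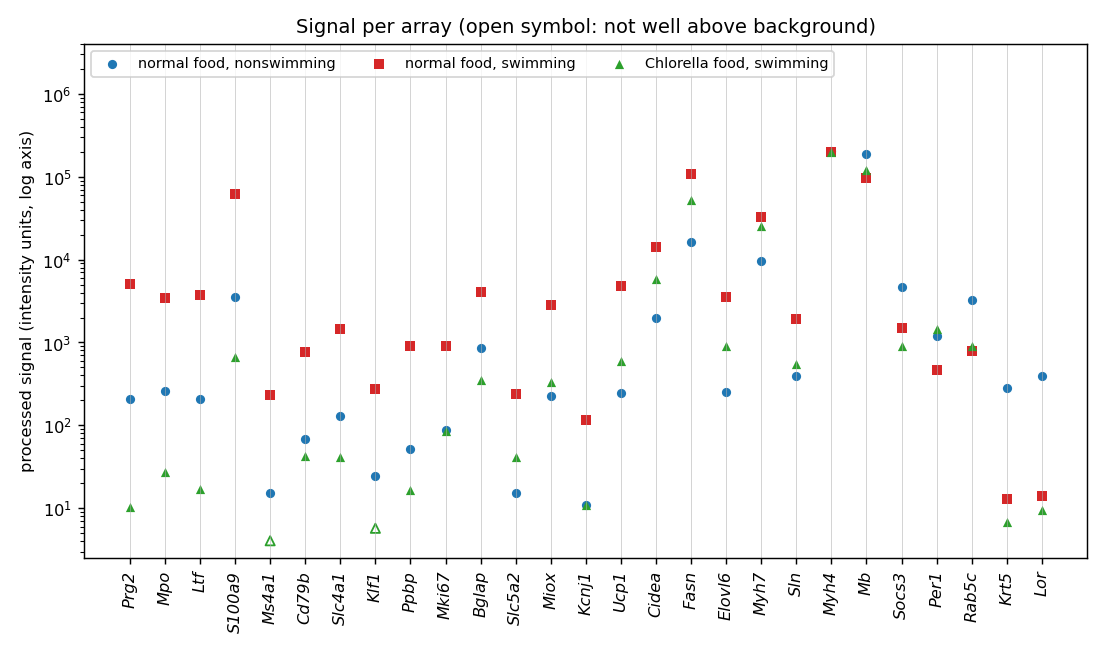
Processed signal (intensity units, log axis) of 27 genes on the 3 arrays, without scaling, with open symbols where a probe was not well above background. Squares for swimming on normal food are highest from Prg2 to Kcnj1, and signals of Krt5 and Lor are highest without swimming.

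Mice of the Chlorella array also swam, and its ratios are taken to the same nonswimming array, so both sets of ratios share that array and are given side by side only. The median Chlorella minus nonswimming ratio was -2.99 over 3 primary granule genes, -0.16 over 22 mitosis genes and 0.39 over 31 proximal tubule genes. Over 25 lipid synthesis genes it was 0.54, and over 9 cornified keratinocyte genes -1.44. The 75th percentile of the signal was 285.9, 295.0 and 237.8 on the 3 arrays, so unscaled signals run lower on the Chlorella array. The arrays lay in 3 positions of 1 slide and 1 scan, so position and group cannot be told apart.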

How the data were processed

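Single-colour Agilent whole mouse genome arrays measured total RNA, 1 array per group, each from a pool of 10 mice per the labels. The deposited scanner files give background-subtracted intensity per spot, made by the authors in Feature Extraction 9.5 (Agilent), as the submitters' processing notes say, with no scaling between arrays. The authors' deposited value table holds log2 values for 13683 spots, with the centre of each probe unstated. Its differences correlated with those of the scanner files at r = 0.764 across spots, which are not independent replicates. It served as an alternative.

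Control spots and 194 flagged as outliers of 43379 were left out. Processed signals were taken as log2 minus each array's 75th percentile, spots of a probe were averaged, and a gene took its brightest probe. A total of 22948 probes were named through RefSeq accessions, 6658 by symbol and 3109 by an older symbol, and 8454 kept the file's name. Genes counted as measured were well above background on both arrays, 2-fold was the threshold, and no test was possible with 1 array per group. The error of a ratio is the scanner software's, and the number of arrays limits the precision. Depth has no meaning for arrays, and 23841, 24858 and 23448 probes were well above background. Cyclic loess, quantile normalization, centring on the median, normexp with an offset of 50, other filters and thresholds, probe means, the authors' table and spike-in scaling were tried as alternatives, the last chosen after seeing the data.

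Members and lists were chosen with earlier results of these data known, and 17 of 72 lists were added after the values were seen. Outside the lists, genes were named from those with the largest ratios in either direction, or as stated. Some list members are counted but not reported here by name. The scaling and the counting of genes past 2-fold were tested on simulated data with known changes put into brighter genes. The list summaries were not tested in this way. Python 3.11.15, pandas 2.3.3, R 4.3.3 and limma 3.58.1 were used.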

Additional observations from a re-analysis of the deposited data

How the results depend on the processing

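The counts of 805 genes higher and 167 lower stayed within 1.5 times under quantile normalization, cyclic loess and probe means. The limit by scanner error removed none of these genes. Its median 95% limit was 0.40, below the log2 ratio of 1 at 2-fold, so this outcome was nearly fixed in advance. Centring on the median gave 276 lower, and spike-in scaling, chosen after seeing the data, 98 lower. With normexp there were 386 higher and 42 lower, with no filter 2104 and 1255, with a signal of at least 50 intensity units 324 and 52, and at 3-fold 438 and 45. The authors' deposited table, with fewer genes (12162), gave 509 higher. Leaving out the cell type, other tissue and cell cycle lists, likewise chosen later, 592 were higher and 146 lower of 15119. Among 55 lists, 12 had a median of at least 1 in size, and 5 of 49 did with a signal of at least 50. Of 2335 values of 286 genes under these alternatives, 2186 kept their direction and side of 2-fold, 146 no longer reached 2-fold and 3 changed sign, all with the authors' table: Cd37 to -0.89, Dock2 to -1.60 and Slc22a8 to -0.079. The cause of these sign changes was not tested. Filters on dim probes leave a gene's own ratio unchanged, and probe means do so for genes with 1 measured probe. Centring on the median and spike-in scaling shift every ratio by the same amount. Many of the 2186 kept values were therefore fixed or nearly so, and their count is no measure of stability. Of 658 list medians 45 moved and 0 changed sign among those of at least 1 in size. No paired analysis was possible because each group has 1 array and the labels give no replicate numbers. Ratios of dim genes depend on the background correction, and signal over background limits what can be read from them.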
